A study of Mus musculus with 4 samples.

Results

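Axonemal dynein intermediate and light chains were examined in retinal RNA of mouse embryos labelled wild-type or Foxn3KO, the latter for a deletion in Foxn3, a forkhead transcription factor gene. The set was given by name and holds 8 genes of axonemal dynein (Dnai1, Dnai2, Dnai3, Dnai4, Dnal1, Dnali1, Dnal4 and Dynlrb2) and 2 genes of cytoplasmic dynein for comparison (Dynlrb1 and Dynll1). Of these 10 genes, 9 were measured among 18471 genes, 7 axonemal and 2 cytoplasmic, and Dnali1 was not analysed here. The series compared whole retinas at embryonic day 19 from wild-type embryos (2 libraries) and from Foxn3-/- embryos labelled Foxn3KO (2 libraries), which carry a deletion of exon 3 of Foxn3 on the strain C57BL/6NJ-Foxn3em1(IMPC)Bay/Mmnc. Per the labels, each library came from individual genotyped embryos, and no agent or transgene is named for either group. No driver or cell type is named for the deletion.

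Dyneins are motors that walk along microtubules. Axonemal dyneins form the outer and inner arms of motile cilia and flagella, where heavy chains generate force, intermediate chains tie the heavy chains together and to the microtubule doublet, and light chains regulate or stabilise the assembly. Cytoplasmic dynein carries cargo through the cell, and a separate cytoplasmic dynein, dynein-2, returns material from the tip of the cilium. Cells of the retina bear primary cilia, which lack dynein arms, and the photoreceptor outer segment is a modified primary cilium.

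Total counts were 22543531 to 29360129 per library, and 3 counts correspond to 0.102 to 0.133 CPM, counts scaled to library size. Foxn3 itself was higher in the libraries labelled Foxn3KO (2421 and 2712 counts against 4181 and 3219), and gene counts do not resolve exon 3, so every direction here rests on the labels. Wild-type replicate 1 stood apart by sex, with 83073 Xist counts and 0 Ddx3y counts against 9 to 19 and 1780 to 2317 in the other 3 libraries. Without it, the log2 fold changes of the 7 axonemal genes ran from 0.58 to 5.14, against 0.59 to 5.10 with all libraries, and all 7 still passed the test, where the remaining wild-type library is assumed to vary like the Foxn3KO libraries. All 16 retinal marker genes listed were present, with a summed level of 4225 to 4405 CPM in every library. Pax6 was the most abundant of them. In the test used below, 3 of the 16 were called higher and 2 lower, against 12.3% and 9.66% of all tested genes.

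All 7 axonemal genes measured were higher in the libraries labelled Foxn3KO, and none was lower. Each passed an adjusted p of 0.05 in edgeR's quasi-likelihood test, against 12.3% of 17300 tested genes that rose and 9.66% that fell. Their median log2 fold change was 1.74, against -0.00470 over all tested genes. The rises ran from 1.51-fold (Dnal4) to 34.4-fold (Dnai3). All 9 measured genes had both Foxn3KO values above both wild-type values in CPM, as had 29.9% of the tested genes. The lowest count of any of the 9 genes in any library was 26, so none depended on the low-count filter. Of the 2 cytoplasmic genes, Dynll1 rose 1.26-fold, and Dynlrb1 did not pass the test (1.04-fold). In whole retina, more cells that use a gene cannot be told apart from more RNA per cell.

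**Figure D1:**
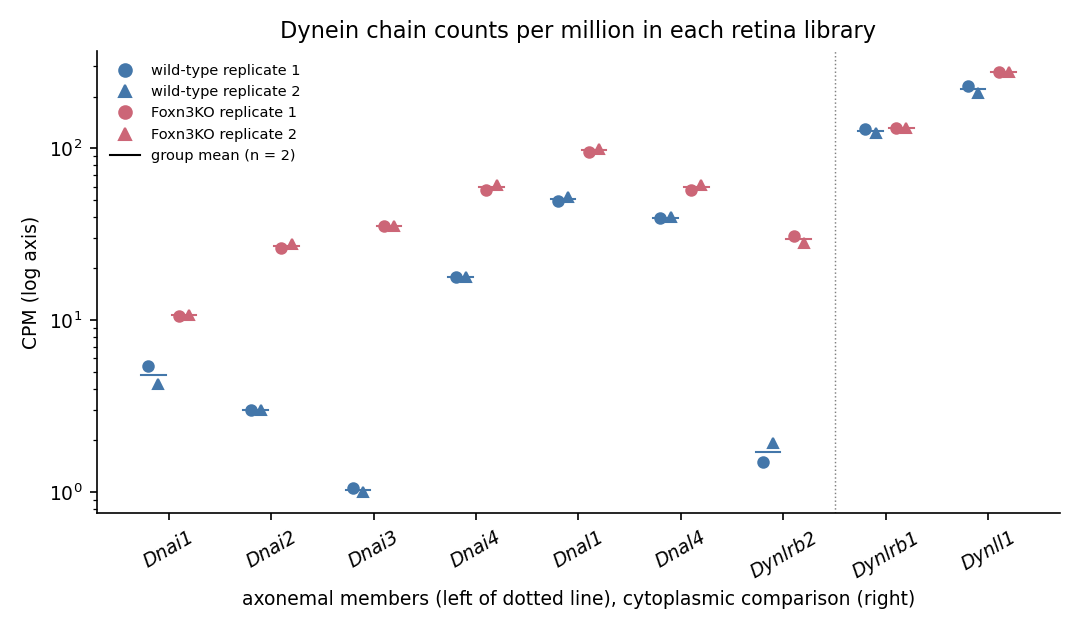
Level of each dynein gene in every library in CPM on a log axis, with circles for replicate 1, triangles for replicate 2 and lines at the group means. Blue wild-type and red Foxn3KO points are far apart for Dnai2, Dnai3 and Dynlrb2 and close together for Dynlrb1, where the means are 126.6 and 132.0 CPM.

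The outer arm was taken first. Dnai1 (ENSMUSG00000061322) and Dnai2 (ENSMUSG00000034706) encode its paired intermediate chains, and variants of either gene are known causes of primary ciliary dyskinesia. Dnai1 was at 5.40 and 4.23 CPM in the wild-type libraries and at 10.6 and 10.7 CPM in the Foxn3KO libraries. Both Foxn3KO values were above both wild-type values, and the wild-type libraries were the more uneven pair. Its log2 fold change was 1.15 (SE 0.14, edgeR adjusted p = 9.99e-06). Dnai2 was at 2.98 and 3.02 CPM in wild-type and at 26.3 and 27.7 CPM in Foxn3KO. The wild-type libraries were nearly equal, and the log2 fold change was 3.17 (SE 0.11, edgeR adjusted p = 2.25e-13), an 8.98-fold rise. Dnai1 rose 2.22-fold.

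Dnai3 and Dnai4 encode the intermediate chains of the double-headed inner arm, and their older symbols are Wdr63 and Wdr78. Dnai3 (ENSMUSG00000043020) had 26 and 27 counts in wild-type and 1027 and 787 in Foxn3KO. In CPM these were 1.05 and 0.994 against 35.3 and 35.1, with replicates that differed by far less than the groups. Its log2 fold change of 5.10 (SE 0.12, edgeR adjusted p = 1.07e-15) was the largest of the set and stood at place 21 from the top among the 17300 tested genes. Dnai4 (ENSMUSG00000035126) was already readily detected in wild-type, at 17.7 and 17.8 CPM, and reached 57.1 and 61.6 CPM in Foxn3KO. Its log2 fold change was 1.74 (SE 0.07, edgeR adjusted p = 1.29e-12), a 3.34-fold rise beside the 34.4-fold rise of Dnai3.

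Dnal1 (ENSMUSG00000042523) encodes a leucine-rich repeat light chain that binds an outer-arm heavy chain. It was at 49.2 and 52.1 CPM in wild-type and at 95.6 and 99.7 CPM in Foxn3KO. The groups did not overlap, and the log2 fold change was 0.95 (SE 0.05, edgeR adjusted p = 3.23e-10). Dnal4 (ENSMUSG00000022420), a light chain related to the protein of Dynll1, was at 39.2 and 39.8 CPM in wild-type and at 57.5 and 61.4 CPM in Foxn3KO. Its log2 fold change of 0.59 (SE 0.06, edgeR adjusted p = 8.17e-07) was the smallest of the axonemal genes. Both light chains were well expressed in wild-type retina and rose less than Dnai2, Dnai3 or Dynlrb2.

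**Figure D2:**
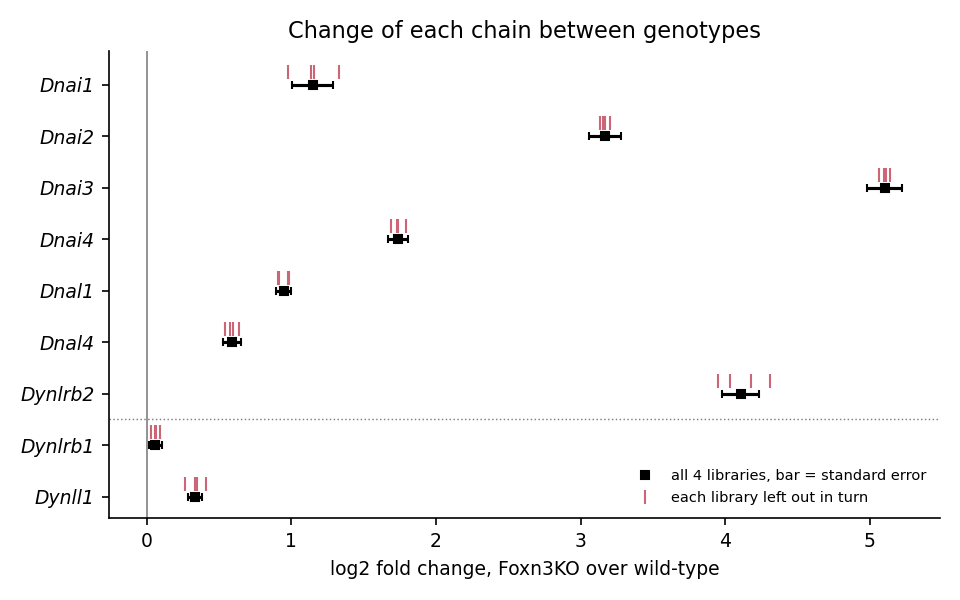
Log2 fold change of each gene between Foxn3KO and wild-type, with squares and standard error bars for all 4 libraries and red ticks for fits without 1 library each. Dnai3 (5.10) and Dynlrb2 (4.11) lie far to the right, and Dynlrb1 (0.06) lies close to 0.

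The roadblock light chains give the closest pair of an axoneme-associated and a cytoplasmic gene. Dynlrb2 is known for expression in ciliated tissues such as airway and testis, and Dynlrb1 is the widely expressed copy used by cytoplasmic dynein. Their coding sequences are printed to show how similar the 2 transcripts are, in lower case with the bases that differ between them in capitals (GENCODE M21, build GRCm38).
Dynlrb1: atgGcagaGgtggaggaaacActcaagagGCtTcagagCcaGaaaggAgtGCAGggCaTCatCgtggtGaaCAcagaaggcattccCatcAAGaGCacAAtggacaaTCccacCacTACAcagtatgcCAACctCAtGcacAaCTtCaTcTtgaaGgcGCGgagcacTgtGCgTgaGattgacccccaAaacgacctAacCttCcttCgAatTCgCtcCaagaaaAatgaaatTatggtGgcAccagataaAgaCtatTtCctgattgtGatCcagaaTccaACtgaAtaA
Dynlrb2: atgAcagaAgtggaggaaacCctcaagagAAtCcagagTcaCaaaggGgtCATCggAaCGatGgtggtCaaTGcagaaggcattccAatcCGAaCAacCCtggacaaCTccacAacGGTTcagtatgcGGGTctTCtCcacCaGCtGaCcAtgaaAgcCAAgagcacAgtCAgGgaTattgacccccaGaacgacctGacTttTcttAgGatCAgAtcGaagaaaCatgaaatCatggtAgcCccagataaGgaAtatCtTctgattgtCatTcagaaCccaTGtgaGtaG
Each is 291 bases long, 209 bases (71.8%) are the same, and the longest run shared by any annotated coding transcripts of both genes is 13 bases.

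Dynlrb2 (ENSMUSG00000034467) had 37 and 52 counts in wild-type and 902 and 629 in Foxn3KO, which was 1.49 and 1.91 CPM against 31.0 and 28.1 CPM. The lower Foxn3KO library was well above the higher wild-type library, and the log2 fold change was 4.11 (SE 0.13, edgeR adjusted p = 6.06e-14), a 17.2-fold rise. Dynlrb1 (ENSMUSG00000047459) was at 129.5 and 123.7 CPM in wild-type and at 131.8 and 132.2 CPM in Foxn3KO. The group means lay closer together than the wild-type libraries did, and the log2 fold change of 0.06 (SE 0.05, edgeR adjusted p = 0.403) did not pass the test. The highest log2 fold change of Dynlrb1 in any setting tried was 0.0944.

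Dynll1 (ENSMUSG00000009013) encodes the light chain known as LC8, a dimer that serves cytoplasmic dynein and many other proteins and is also found in axonemes. It was at 231.1 and 209.5 CPM in wild-type and at 279.3 and 277.0 CPM in Foxn3KO. The groups did not overlap, and the log2 fold change was 0.34 (SE 0.05, edgeR adjusted p = 4.90e-05), smaller than that of every axonemal gene of the set. Its copy Dynll2, whose coding sequence is 81.1% the same with shared runs of at most 16 bases, had a log2 fold change of 0.14 (edgeR adjusted p = 0.0188). The call of Dynll2 was lost without Foxn3KO replicate 1 (0.12, adjusted p = 0.347) and without Foxn3KO replicate 2 (0.16, adjusted p = 0.171).

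Levels were then compared between genes on a per-length scale, the deposited FPKM, which are scaled by gene length and library depth. In wild-type the order of mean FPKM was Dynlrb1 (125.0), Dynll1 (56.4), Dnal4 (16.5), Dnal1 (7.27), Dynlrb2 (3.05), Dnai4 (2.42), Dnai1 (1.73), Dnai2 (0.654) and Dnai3 (0.307). In Foxn3KO it was Dynlrb1 (130.5), Dynll1 (71.3), Dynlrb2 (52.97), Dnal4 (24.8), Dnal1 (14.0), Dnai3 (10.6), Dnai4 (8.10), Dnai2 (5.90) and Dnai1 (3.82). No neighbours in either order overlapped in their 2 libraries. Dynlrb2 moved from place 5 to place 3 and Dnai3 from the last place to place 6, while Dnai1 became the lowest.

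Ratios of FPKM within a library do not depend on library scaling. Dynlrb2 was at 0.0209 and 0.0281 of the FPKM of Dynlrb1 in wild-type and at 0.427 and 0.386 in Foxn3KO. Dynlrb2 therefore made up 2.05% and 2.73% of the FPKM of the roadblock pair in wild-type and 29.9% and 27.8% in Foxn3KO. The ratio of Dnal4 to Dynll1 hardly moved, from 0.276 and 0.309 to 0.335 and 0.361, a 1.19-fold difference. For the intermediate chains, whose ratios were chosen after their values were seen, Dnai1 to Dnai2 went from 2.97 and 2.30 in wild-type to 0.660 and 0.635 in Foxn3KO. Dnai3 to Dnai4 went from 0.130 and 0.123 to 1.36 and 1.26. Both intermediate chain pairs thus lay on opposite sides of an equal ratio in the 2 groups. Each of these 4 ratios separated the groups without overlap, with an exact permutation p of 0.333 (two-sided), also after Benjamini-Hochberg adjustment, the smallest that 2 libraries against 2 can give.

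**Figure D3:**
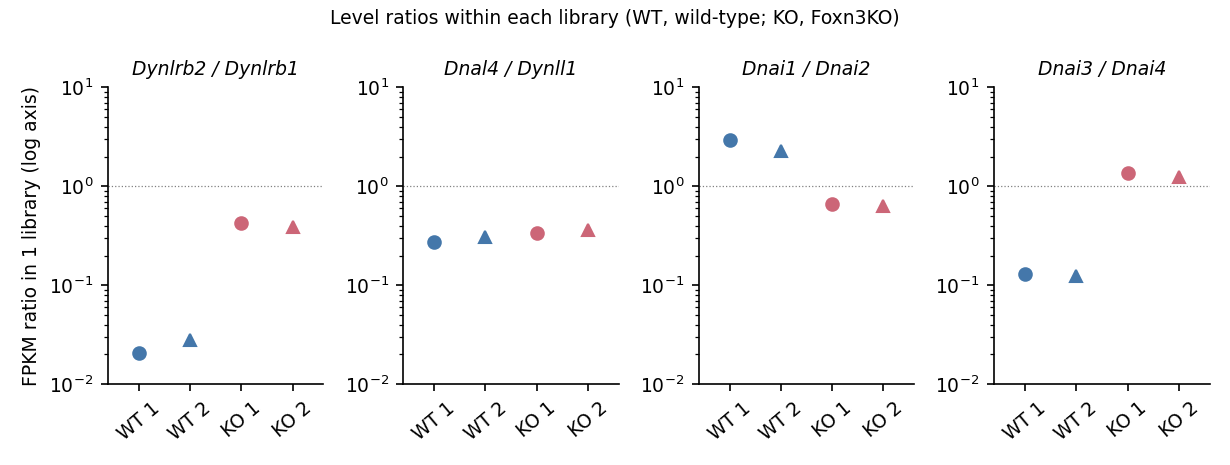
FPKM ratio of 4 gene pairs in each library on a log axis (WT, wild-type, and KO, Foxn3KO), with a dotted line at equal levels. The Dynlrb2 to Dynlrb1 ratio is 16.7-fold higher in Foxn3KO, the Dnai3 to Dnai4 ratio 10.3-fold higher, and the Dnal4 to Dynll1 ratio 1.19-fold higher.

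The sequence before the start of each gene was read because the axonemal genes moved together. Of the measured genes, 5 axonemal and 2 cytoplasmic ones had an entry in the RefSeq promoter table (GRCm38.p6, 250 bases before to 50 after the start), and Dnai2 and Dnai4 did not. The X-box is the site of RFX transcription factors, known regulators of cilia genes, and forkhead factors such as Foxj1 and Foxn3 belong to another family. An arm of the X-box was searched on both strands as any of 4 words, namely GTTGCC with its close variant GTTGCT and GTTACC with its close variant GTTACT. At least 1 arm was found for 5 of 5 axonemal and 2 of 2 cytoplasmic genes, and in 35.8% of 32851 promoters of the same length. A pair of arms written GTTNCNNNGNAAC, a word that overlaps the single arms and was chosen after the promoters were seen, was found for Dnai1 and Dynlrb2, for 0 of 2 cytoplasmic genes and in 0.971% of all promoters. The forkhead core TAAACA was found for 0 of the 7 genes and in 13.4% of all promoters. The longer GTAAACA, which contains it, was found for 0 of the 7 genes and in 3.65%. No other forkhead word was searched, so whether these promoters hold a site of Foxn3 in another form was not tested.

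Stretches with these matches are printed with X-box arms in capitals, beside the same stretch of Dynlrb1 at start site 1, which holds none. They are the 100 bases before the start for Dynlrb2 (chr8:116504915-116505014, plus strand) and Dynlrb1 (chr2:155236433-155236532, plus strand), 24 bases for Dnai1 (chr4:41569770-41569793, plus strand) and 30 bases for Dnai3 (chr3:146108056-146108085, minus strand).
Dynlrb2: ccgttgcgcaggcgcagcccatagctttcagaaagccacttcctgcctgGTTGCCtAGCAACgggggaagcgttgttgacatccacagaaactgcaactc
Dynlrb1: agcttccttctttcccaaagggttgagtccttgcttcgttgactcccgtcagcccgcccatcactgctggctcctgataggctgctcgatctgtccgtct
Dnai1: tgtcgGTTGCTgGGTAACcgcgtc
Dnai3: atcttAGCAACggacgcgtcctAGCAACaa
The paired arms begin 51 bases before the start of Dynlrb2, which has a further single arm at 150 bases, and 19 bases before that of Dnai1. Dnai3 has 3 single arms, which begin 44, 27 and 6 bases before its start. The single arms of Dnal1 and Dnal4 begin at base 36 and base 24 of the transcript. For Dnai1, Dnai3 and Dnal1 a RefSeq transcript of the gene starts further upstream than the start used here. Their arms may thus lie within the transcribed gene. The arm of Dynlrb1 lies 200 bases before start site 1, the window of its start site 2 holds 0, and that of Dynll1 lies 144 bases before the start. Among RFX and forkhead genes, Rfx2 rose from a mean of 21.99 to 58.6 CPM, with an edgeR adjusted p of 1.18e-10 for a log2 fold change of 1.41. Rfx3 rose from 75.2 to 99.2 CPM, with an edgeR adjusted p of 1.35e-05 for a log2 fold change of 0.40. Foxj1, a master regulator of motile cilia, had 191 and 226 counts in wild-type and 5154 and 3914 in Foxn3KO, with an edgeR adjusted p of 1.60e-18 for a log2 fold change of 4.45.

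The genes next to the members in the GENCODE M21 order (GRCm38) were read in the same fit. Of 21 tested neighbours or overlapping genes of the 9 members, 7 were called higher, against 12.3% of all tested genes, and 3 lower, against 9.66%, with a median log2 fold change of 0.01. The largest was Pnma1, which overlaps Dnal1 on the opposite strand and rose from 3.47 to 16.6 CPM (log2 fold change 2.26, edgeR adjusted p = 1.73e-10). Use of strand in the deposited counts is not given in the sources used here, so reads where Pnma1 and Dnal1 overlap cannot be told apart. Kif19a, a kinesin gene that shortens motile cilia and the gene next to Dnai2, rose by a log2 fold change of 0.47 (edgeR adjusted p = 2.89e-06). Enho overlaps Dnai1 and Mier1 overlaps Dnai4, both on the opposite strand, with log2 fold changes of 0.20 and -0.15 that passed in edgeR (adjusted p = 0.0456 and 0.0412) but not in DESeq2 (adjusted p = 0.193 and 0.148). The genes beside Dnai3 and Dynlrb2 did not pass: Syde2 had -0.09, Mcoln3 -0.35, Maf -0.22 and Cdyl2 -0.20.

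The other parts of the dynein arms were compared next, as counts of genes past the same threshold. Of all tested genes, 12.3% were called higher and 9.66% lower. Of 5 outer-arm heavy chains, the force-generating subunits, 3 rose: Dnah9 (log2 fold change 4.11), Dnah11 (2.51) and Dnah5 (3.20). Of 6 inner-arm heavy chains tested, 5 rose, with Dnah10 (7.32), Dnah2 (1.62) and Dnah7b (0.91) at the smallest p, where the near-identical Dnah7a, Dnah7b and Dnah7c may share reads. Dnah7c, named after its value was seen, rose by 1.73 (edgeR adjusted p = 0.000309). Of 18 factors that assemble the arms in the cytoplasm before transport, 15 rose and none fell, with Zmynd10 (4.33), Cfap298 (1.59) and Lrrc56 (1.44) at the smallest p. Dnaaf1, named after its value was seen, had 4 and 10 counts in wild-type and passed the low-count filter only through Foxn3KO. With at least 10 counts required in every library, 14 of these factors were called and their median log2 fold change was 1.44. Of 4 genes of the complex that docks the outer arm, Odad4 (3.78), Odad1 (3.39) and Odad3 (2.37) rose. The medians of these lists were 2.51, 1.26, 1.51 and 2.88, beside 1.74 for the axonemal intermediate and light chains. The genes that did not pass, named after their values were seen, were Dnah8 (0.28), Dnah17 (-0.11), Dnah1 (0.01), Dnaaf9 (0.01), Dnaaf10 (0.09), Pih1d1 (0.02) and Ccdc63 (-0.43).

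Further dynein chains outside the set were read in the same fit. Dnai7, named for an intermediate chain, rose from 72 and 90 counts to 290 and 219 (log2 fold change 1.66, edgeR adjusted p = 1.60e-07). Dynlt5, of the Tctex family of light chains, went from 5 and 5 counts to 135 and 105, a log2 fold change of 4.56. It passed the low-count filter only through its Foxn3KO libraries, so no p-value is given for it here. All 5 genes of dynein-2 rose, against 12.3% of all tested genes. Their log2 fold changes ran from 0.62 (Dync2i2) to 1.37 (Dync2i1), with Dync2h1 at 0.88 and Dync2li1 at 1.01.

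**Figure D4:**
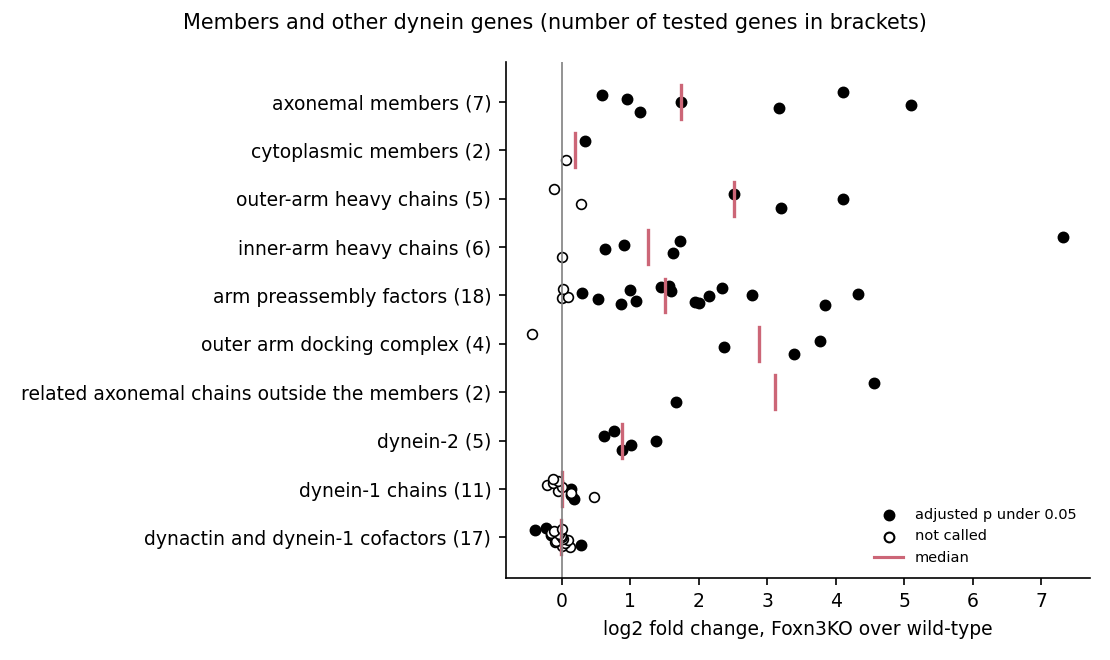
Log2 fold change of every tested gene in each list, with filled points for an adjusted p under 0.05 and a red line at the median. The filled points and medians include Dynlt5 and Dnaaf1, which passed the low-count filter only through Foxn3KO. The arm lists have medians from 1.26 to 2.88, and the dynein-1 and dynactin lists lie around 0.

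Cytoplasmic dynein-1 was read last. Its chains Dync1h1 (0.18), Dynll2 (0.14) and Dync1i2 (0.14) were higher by small amounts, with edgeR adjusted p of 0.0154, 0.0188 and 0.0227. Of the 11 chains listed, which leave out Dynlrb1 and Dynll1, these 3 were called higher and none lower. Of all tested genes, 12.3% and 9.66% were so called. This count was 0 without Foxn3KO replicate 1 and 0 without Foxn3KO replicate 2. The median over these chains was -0.00126 on the log2 scale. Of 17 genes of dynactin and cofactors of dynein-1, Dctn3 was called higher (0.29), and Hook1 (-0.39), Hook3 (-0.23) and, named after its value was seen, Nde1 (-0.16) were called lower. The shares of all tested genes beside these were again 12.3% higher and 9.66% lower. The count of 4 fell to 2 without Foxn3KO replicate 2, where Hook3 was lost (adjusted p = 0.0603), and was 8 without wild-type replicate 2. Dynlrb1 and Dynll1 had log2 fold changes of 0.06 and 0.34 beside these, and Dynll1 was called higher.

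In the authors' deposited table the same 8 of the 9 genes have an adjusted p under 0.05, all higher in Foxn3KO, where 10.1% of the 15248 genes with an adjusted p rose. The authors' deposited table gives log2 fold changes of 5.09 for Dnai3, 4.09 for Dynlrb2, 3.15 for Dnai2, 1.08 for Dnai1 and 0.06 for Dynlrb1.

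Marker lists of other tissues were read in the same libraries. Of 8 lens genes tested, 8 were called higher in Foxn3KO, against 12.3% of all tested genes, with summed levels of 4.48 and 57.9 CPM in wild-type replicates 1 and 2 and of 223.6 and 224.5 CPM in Foxn3KO. Of 7 retinal pigment epithelium genes tested, 3 were called lower, against 9.66% of all tested genes, and 0 higher, with sums of 86.3 and 113.4 against 70.6 and 71.5 CPM. The part of the lens and pigment epithelium genes in the results was not tested. Of 8 choroid plexus genes tested, 2 were called higher and 2 lower, against 12.3% and 9.66% of all tested genes. Choroid plexus sums were 45.0 and 54.1 CPM in wild-type and 54.2 in both Foxn3KO libraries. Of 5 ependymal genes tested, 1 was called higher, against 12.3% of all tested genes. Ependymal sums were 1705 and 1695 CPM in wild-type against 1748 and 1759 CPM in Foxn3KO, with Nnat the most abundant gene. The part of choroid plexus and ependymal cells, tissues known for motile cilia, was not tested. The 2 oviduct and testis genes tested did not pass, and the 9 airway genes listed were not analysed here. Every gene measured had at least 16 counts summed over the libraries, so a marker at 0 in all libraries could not appear here.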

How the data were processed

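Per the labels, total RNA of retinas from individual genotyped embryos was sequenced after strand-specific library preparation with adaptors that carry molecular identifiers. The authors deposited 1 table with raw counts per gene and library and with FPKM values. Per the submitters' processing notes, the build was mm39 and DESeq2 was among the tools; the aligner, counter, annotation and use of strand and identifiers are not given in the sources used here. The table also holds, from the authors, a mean signal per gene (not used here), log2 fold changes, their standard errors (a score column, not used here), and p-values with adjusted p-values.

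Counts of 18471 genes (a repeated identifier was dropped) were filtered with filterByExpr, which left 17300. TMM factors scaled the libraries, and edgeR 4.0.16 (R 4.3.3) gave the quasi-likelihood test (current edgeR fit, no term but genotype, two-sided, Benjamini-Hochberg over all tested genes, threshold 0.05). Standard errors were derived from the fold change and F. CPM values use TMM-adjusted library sizes. FPKM served for levels between genes. The procedure was tested on simulated data.

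The members and lists were chosen with earlier results of these data known. Genes named are all members, Foxn3, Foxj1, Rfx2, Rfx3, Dnai7 and Dynll2. In each of 8 pathway lists the 3 genes with the smallest p are named. Of the neighbours, those that overlap a member, Kif19a and the genes beside Dnai3 and Dynlrb2 are named. The other neighbours, some of them called, entered only the counts and the median. Marker lists covered 11 tissues: retina, lens, retinal pigment epithelium, choroid plexus, ependyma, airway, oviduct and testis, vessels and mesenchyme, microglia, blood and muscle. Vessel, microglia, blood and muscle genes were called in 2 of 8, 0 of 8, 0 of 5 and 0 of 2 tested genes. The 2 vessel and mesenchyme genes were called higher, against 12.3% of all tested genes. Since mm39 differs from the GRCm38 references, these gave no counts or levels. They gave gene order, overlap and strand, the promoter matches, the coding sequence comparisons and the printed sequences. The labels name no shared litter or day for libraries with the same replicate number, so samples were not paired in the main fit. The correlation of replicate differences between groups was 0.00526 over 17300 genes. It rests on a single difference in each group and cannot settle whether samples share a litter or day. Alternatives were RLE and total count scaling, other filters, DESeq2 1.42.0, limma-voom (limma 3.58.1), the earlier edgeR fit, a replicate block, an adjusted p under 0.1 and leaving out each library. Figures used matplotlib 3.10.9 and alignments Biopython 1.88.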

Additional observations from a re-analysis of the deposited data

How the results depend on the processing

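All 9 measured members kept their direction and their side of the threshold under each of the 12 other settings tried, 108 of 108 comparisons. Ranges were 5.06 to 5.14 for Dnai3, 3.95 to 4.31 for Dynlrb2, 0.977 to 1.33 for Dnai1 and 0.0272 to 0.0944 for Dynlrb1. DESeq2 called 2437 genes in place of 3795, and the cause was not tested. Leaving out a library gave 2323 to 5067 calls. The replicate block gave 4222 calls, including 3792 of the 3795, and the 7 axonemal members were called as before. Fits without a library have 1 sample in a group, assumed to vary like the other. With 2 libraries a group, depth limits mainly Dnai3 and Dynlrb2 in wild-type, at 26 to 52 counts.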
